A study of Homo sapiens with 8 samples.

Results

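Small open reading frames (smORFs) in genes of the intestinal brush border and its digestive enzymes were described in ribosome profiling (Ribo-Seq) libraries of the human cell line Caco-2, which was derived from a colon adenocarcinoma and becomes enterocyte-like once it differentiates. The members were all smORFs whose annotated host gene was VIL1, SI, ALPI, DPP4, ANPEP, CDHR2, CDHR5, MYO1A, EZR or KRT20. The rule found 10 of the 24199 smORFs in the count table, and they lay in 3 of the 10 genes. MYO1A held 6 smORFs, DPP4 held 2 and ANPEP held 2. No smORF in the table was assigned to VIL1, SI, ALPI, CDHR2, CDHR5, EZR or KRT20, so these genes are named and carry no value here. All 10 members were uORFs, the class for frames in the 5′ untranslated region of an annotated gene, as were 69.9% of all smORFs.

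The 8 libraries formed 4 groups of 2 replicates, and every library came from the same line. Undifferentiated cells were 1 group. The other 3 groups were differentiated cells. These were a control given no micelles and cells given micelles without lipid, which are made of the bile salt taurocholate. The remaining group was given lipid micelles with BSA, oleic acid and cholesterol. The labels state neither the length of differentiation nor that the replicates were separate cultures, so p-values measure the spread between these libraries alone. For mass spectrometry, the paper harvested undifferentiated Caco-2 cells earlier than differentiated ones, and kept only the latter overnight without serum. Whether these libraries were made in that way is not stated. If so, time in culture and serum cannot be told apart from differentiation. Library totals ran from 506382 to 884711 smORF counts, and Pearson's r of log2 values between replicates ran from 0.883 to 0.920.

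The brush border is the carpet of microvilli on the apical face of the enterocyte. Bundled actin filaments form the core of each microvillus, and myosin 1a, the product of MYO1A, links that core to the overlying membrane. Dipeptidyl peptidase 4 (DPP4) and aminopeptidase N (ANPEP) are membrane enzymes of the same surface that trim peptides during digestion. Villin (VIL1), ezrin (EZR), the protocadherins CDHR2 and CDHR5, sucrase-isomaltase (SI), intestinal alkaline phosphatase (ALPI) and keratin 20 (KRT20) are further markers of the mature enterocyte. A uORF is read by ribosomes before the main coding sequence of its transcript, so counts in one are not counts of the host protein.

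The sequences around the first codon are shown because the members began with different codons and in several reading frames. Each line gives 30 bases in the 5′ to 3′ direction on the minus strand of hg38, joined across introns where the transcript is spliced. The first codon of the smORF is in capitals.
MYO1A IEC_20179: acatctatacacATGgagcctgggctggaa
MYO1A IEC_19220: ggagttcaatgaAACtgggacatctataca
MYO1A IEC_14542: gccaggactcttATGccccattcctgtcaa
MYO1A IEC_14543: agctcccattaaGCCacctctccatcctgg
DPP4 IEC_16424: cccccggccgggATGccagtgccccgcgcc
DPP4 IEC_16423: actaatgtttaaCTCggggccgaaacttgc
ANPEP IEC_14538: ccagtccagtgaCCTtcgcctgttggagcc
IEC_20179, IEC_14542 and IEC_16424 began with ATG. The frames of IEC_19220, IEC_14543, IEC_16423 and IEC_14538 began with another codon, directly after an in-frame stop codon (tga or taa).

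The 6 MYO1A smORFs occupied 1 stretch of the 5′ untranslated region. IEC_14541 (chr12:57049902-57050129, minus strand, hg38) lay in a single exon and encoded 76 amino acids. IEC_20179 (chr12:57049902-57050724), IEC_19220 (chr12:57049902-57050743) and IEC_18975 (chr12:57049902-57051170) each had 2 exons and encoded 69, 77 and 77 amino acids. These 4 long smORFs shared 205 bases of the downstream exon, the frame and the TAG stop, which ended 32 bases before the MYO1A coding sequence. They differed in their upstream ends, which followed alternative first exons of MYO1A transcripts in GENCODE release 44.

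The 2 short smORFs of MYO1A lay inside the shared bases. IEC_14542 (chr12:57049915-57049965) encoded 17 amino acids in the frame of the MYO1A coding sequence and stopped 45 bases before it. IEC_14543 (chr12:57049946-57049996) also encoded 17 amino acids, in the remaining frame, and the pair overlapped by 20 bases. All bases of the 6 smORFs were annotated as untranslated, and no annotated exon lay opposite them. A count per smORF does not resolve the frame, so reads in the shared bases can enter several of the 6 values.

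**Figure D1:**
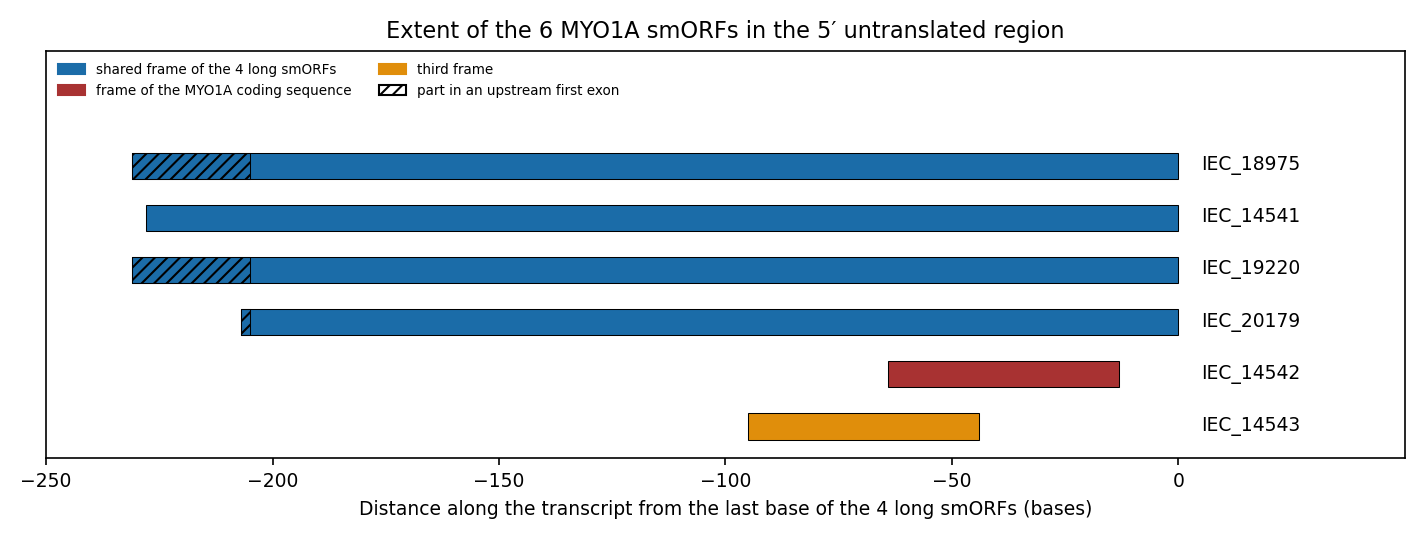
Extent of the 6 MYO1A smORFs along the spliced transcript, in bases upstream of the last base of the 4 long smORFs, with colour for the reading frame and hatching for the part in an upstream first exon. The 4 long smORFs share 205 bases, and both short ones lie inside them in the other frames.

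The first question was how MYO1A smORFs differed between differentiated and undifferentiated cells. All 6 were higher in differentiated control cells, by 2.46-fold to 3.72-fold, and the 8 libraries of each smORF split without overlap between undifferentiated and differentiated cells. Levels are given in CPM, the counts of a smORF relative to the scaled library total. IEC_18975, the smORF with the most counts, had 101 and 53 counts in the undifferentiated libraries and 185 and 245 in the control libraries. Its counts were 197 and 225 with micelles without lipid, and 279 and 256 with lipid micelles. Every differentiated library thus lay above both undifferentiated ones, also on the CPM scale. The group means of IEC_18975 were 126 ± 45.6 CPM in undifferentiated cells, 340 ± 30.4 CPM in the control, 334 ± 32.6 CPM with micelles without lipid and 356 ± 82.4 CPM with lipid micelles (SD, n = 2).

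**Figure D2:**
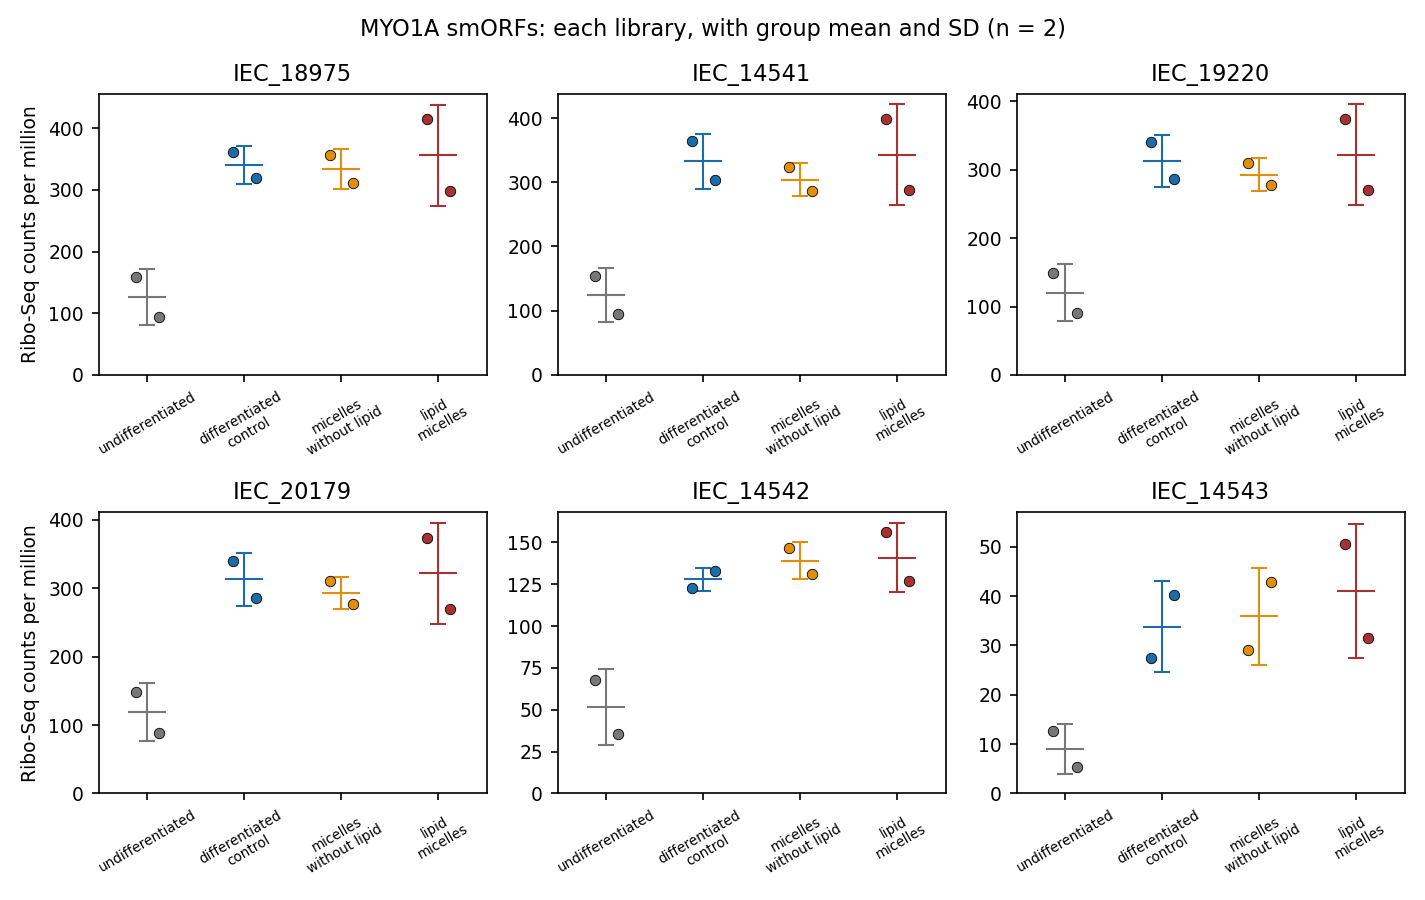
Ribo-Seq level (CPM) of each MYO1A smORF in each library, by group, with a bar and whiskers for the group mean and SD (n = 2). The undifferentiated libraries, at 94.2 and 159 CPM for IEC_18975, lie below all 6 differentiated ones, at 298 to 415 CPM, and the 3 differentiated groups overlap.

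In edgeR's quasi-likelihood test, IEC_18975 was higher in the differentiated control with a log2 fold change of 1.42 ± 0.29 (SE; Benjamini-Hochberg adjusted p = 0.00104). The call rule asked for an adjusted p under 0.05 together with a log2 fold change of 1 or more in either direction. By this rule 6 of the 6 members tested were called higher, all of them in MYO1A, where 33.3% of the 15182 smORFs tested were called in either direction and 17.7% were called higher. The 6 share reads and count as 1 observation rather than 6. With 1 smORF kept per overlapping cluster, 1 member was tested, and it was called.

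The other long MYO1A smORFs gave nearly the same values. IEC_14541 had 98 and 53 counts in undifferentiated cells and 186 and 233 in the control, a log2 fold change of 1.42 ± 0.28 (SE; adjusted p = 0.00102). IEC_19220 rose from 95 and 51 counts to 174 and 220, a log2 fold change of 1.37 ± 0.28 (SE; adjusted p = 0.00129). IEC_20179, the member of this set that begins with ATG, rose from 95 and 50 counts to 174 and 220, with a log2 fold change of 1.38 ± 0.29 (SE; adjusted p = 0.00129). Across the alternative fits, the log2 fold changes of the 4 long smORFs stayed between 1.08 and 1.85, and all were called.

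The short MYO1A smORFs held fewer counts. IEC_14542 had 43 and 20 counts in undifferentiated cells, 63 and 102 in the control, 81 and 95 with micelles without lipid and 105 and 109 with lipid micelles. Its group means were 51.6 ± 22.7 CPM in undifferentiated cells and 128 ± 6.72 CPM in the control (SD, n = 2), a log2 fold change of 1.30 ± 0.32 (SE; adjusted p = 0.00417 by edgeR). Without undifferentiated replicate 2 the log2 fold change of IEC_14542 was 0.94 (adjusted p = 0.0647), and the call was lost. IEC_14543 had 8 and 3 counts in undifferentiated cells, 14 and 31 in the control, 16 and 31 with micelles without lipid and 34 and 27 with lipid micelles. Its log2 fold change in the control was 1.90 ± 0.52 (SE; adjusted p = 0.00914 by edgeR), with a 95% interval from 0.80 to 2.99. Its call was lost without undifferentiated replicate 2 (log2 fold change 1.46, adjusted p = 0.0857) and without differentiated control replicate 2 (1.60, adjusted p = 0.087). Without undifferentiated replicate 1, which left the undifferentiated library with 3 counts, the log2 fold change was 2.66 (adjusted p = 0.0177).

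For a value per host gene, counts were summed over 1 smORF per overlapping cluster, which for MYO1A left IEC_18975. MYO1A stood at 298 and 176 CPM of the host gene total in undifferentiated cells and at 709 and 620 CPM in the control. Its log2 fold change was 1.48 ± 0.27 (SE; adjusted p = 0.000651 by edgeR), where 18.6% of 5090 host genes tested were called higher. The call stood in each of the 16 alternative fits, with log2 fold changes from 1.15 to 1.92. As a description, the 6 smORFs lay between the 89.6th and the 94.6th percentile of log2 fold change among the 11112 uORFs tested, whose median was -0.21.

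The next question was whether micelles changed these smORFs in differentiated cells. None of the 6 MYO1A smORFs was called in any of the 3 comparisons among differentiated cells, and their log2 fold changes lay between -0.13 and 0.23. IEC_18975 differed by -0.03 ± 0.27 (log2, SE) between micelles without lipid and the control, with a 95% interval from -0.59 to 0.54. Between lipid micelles and the control it differed by 0.07 ± 0.27, with an interval from -0.50 to 0.63. Between lipid micelles and micelles without lipid it differed by 0.09 ± 0.27, with an interval from -0.47 to 0.66. Over the 4 long smORFs and the 3 comparisons, the intervals ran from -0.70 to 0.73 on the log2 scale, inside the size that the call rule asks for. The interval of IEC_14543 between lipid micelles and the control ran from -0.61 to 1.07, past that size.

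**Figure D3:**
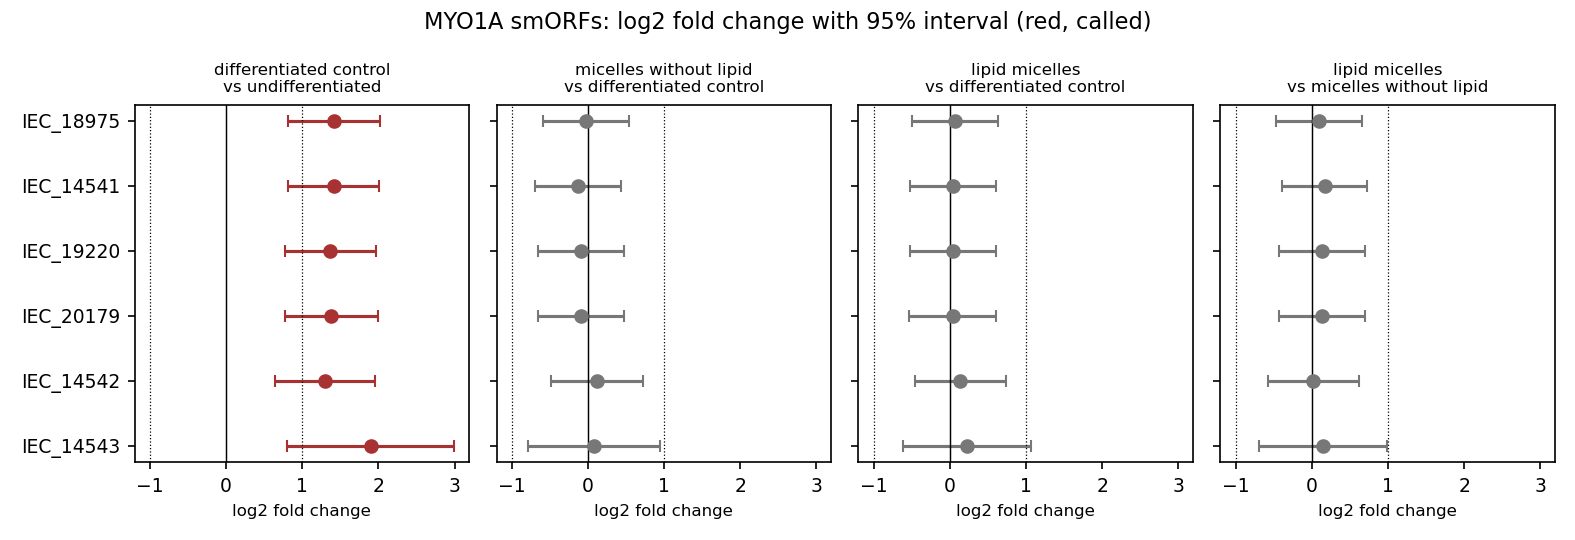
Log2 fold change of the 6 MYO1A smORFs in the 4 comparisons, with 95% intervals, red where called and with dotted lines at a log2 fold change of 1 in either direction. The first panel holds 6 calls between 1.30 and 1.90, and the intervals of the other panels all include 0.

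The absence of calls with micelles was not particular to the members. In each of the 3 comparisons edgeR called 0 of 15182 smORFs (0.0%), while 619 (4.08%), 708 (4.66%) and 624 (4.11%) had an unadjusted p under 0.05, and none of these was a member. DESeq2 called 2 smORFs for micelles without lipid against the control and 0 in the other comparisons, and again no member. The comparisons against the control share its libraries. Differentiated libraries that share a replicate number deviated together, and a fit of these 6 libraries that used the number as a block called 15, 1 and 14 smORFs, with 0 members in each.

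Counts along the 5′ untranslated region of MYO1A were compared within libraries, so that no scaling enters. IEC_18975 held 147 counts more than IEC_20179 over all libraries, or 9.54% of its 1541 counts, and it covers 26 bases of a first exon that IEC_20179 lacks. The excess was 5.94% in undifferentiated replicate 1 (Wilson 95% interval 2.75 to 12.4) and 5.66% in replicate 2 (1.94 to 15.4). It was 5.95% and 10.2% in the control libraries, 13.2% and 11.1% with micelles without lipid and 9.68% and 9.38% with lipid micelles. The share was above both undifferentiated libraries in every differentiated one, though in control replicate 1 it stood at 5.95% beside 5.94%. These shares rest on 3 to 27 counts per library, the intervals cover counting error alone, and the difference between groups was not tested. IEC_19220 held 1 count more than IEC_20179 of its 1395.

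The stretch of IEC_14542 held more counts than its length alone would give, and since the 4 long smORFs cover it in another frame, these counts cannot be assigned to its frame. It covers 24.6% of the length of IEC_20179 and held 44.3% as many counts over all libraries. The share was lowest in differentiated control replicate 1, at 36.2% (Wilson 95% interval 29.4 to 43.6), and highest in replicate 2 with micelles without lipid, at 47.5% (40.7 to 54.4). IEC_14543, of the same length, held 11.8% as many counts as IEC_20179. Per length, IEC_14542 stood at 2508 ± 132 CPM per kilobase in the control (SD, n = 2), IEC_20179 at 1513 ± 185 and IEC_14543 at 664 ± 180. The order was the same in undifferentiated cells, at 1011 ± 444, 575 ± 206 and 176 ± 100 CPM per kilobase, where IEC_14542 and IEC_20179 differed by less than the sum of their SDs.

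The DPP4 smORFs were far lower. Both lay in the 5′ untranslated region on chromosome 2, minus strand of hg38: IEC_16424 (chr2:162074089-162074220, 44 amino acids) upstream and IEC_16423 (chr2:162074036-162074116, 27 amino acids) downstream, with 28 bases in common. The gene DPP4-DT lies on the opposite strand, and none of its exon bases faced either smORF. IEC_16423 had 6 and 2 counts in undifferentiated cells, 2 and 7 in the control, 3 and 7 with micelles without lipid and 5 and 15 with lipid micelles. IEC_16424 had 3 and 2 counts in undifferentiated cells, 2 and 9 in the control, 2 and 3 with micelles without lipid and 6 and 10 with lipid micelles. Neither passed the filter on low counts (filterByExpr), so neither was tested. The 4 groups overlapped in IEC_16423. In IEC_16424 the lipid micelle libraries, at 8.91 and 11.6 CPM, lay above those of undifferentiated cells, at 4.71 and 3.55 CPM, and of micelles without lipid, at 3.63 and 4.15 CPM, and within the span of the control, at 3.91 and 11.7 CPM. These values rest on 2 to 10 counts per library.

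**Figure D4:**
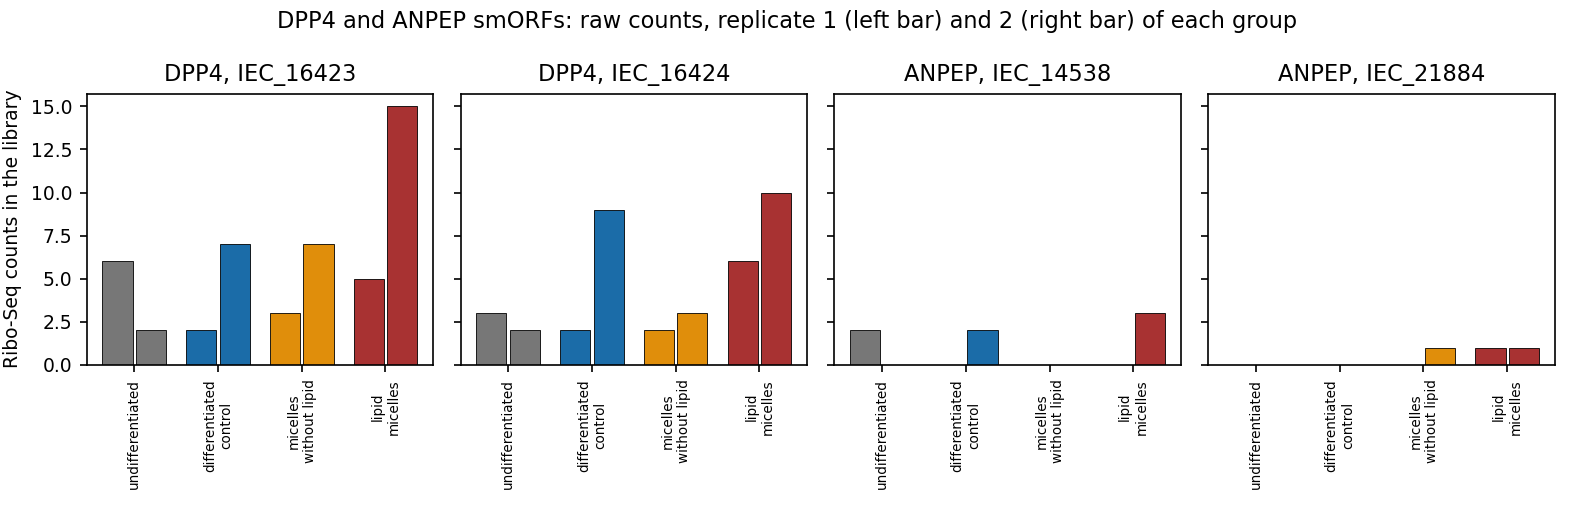
Raw Ribo-Seq counts of the 2 DPP4 and 2 ANPEP smORFs in each library, as paired bars for replicates 1 and 2 of each group. No value exceeds 15 counts, and of the ANPEP values 10 of 16 are 0.

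With the DPP4 smORFs summed, overlapping bases included, the host gene could be fitted. Its log2 fold change was 0.54 ± 0.66 (SE) in the control against undifferentiated cells, with a 95% interval from -0.89 to 1.96 (adjusted p = 0.543 by edgeR). Between lipid micelles and the control it was 0.60 ± 0.58 (adjusted p = 0.952), and between lipid micelles and micelles without lipid 0.98 ± 0.60 (adjusted p = 0.998). No difference of DPP4 was detectable at this depth, and the intervals are wide enough to hold changes in either direction. Per length, IEC_16423 stood at 80.3 ± 45.3 CPM per kilobase in the control and IEC_16424 at 59.1 ± 41.8 (SD, n = 2), against 1473 ± 132 for IEC_18975 of MYO1A.

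The ANPEP smORFs were near the limit of detection. IEC_14538 (chr15:89806655-89806726, minus strand, hg38) encoded 24 amino acids in the 5′ untranslated region. Its counts were 2 and 0 in undifferentiated cells, 0 and 2 in the control, 0 and 0 with micelles without lipid and 0 and 3 with lipid micelles. IEC_21884 (chr15:89806858-89815115), the longest member with 144 amino acids, had 1 count in replicate 2 with micelles without lipid, 1 in each lipid micelle library and 0 in the other 5. Only 181 of its 432 bases lay in exons of GENCODE release 44. A count of 0 allows up to 3.49 to 5.86 CPM, depending on the library, by the limit of 3 counts, which covers counting error alone since PCR duplicates were not resolved. All ANPEP values lay at or under 3 counts, so no fold change is given and no order of the groups can be read.

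The members were also described by features that the rule did not use. RibORF scores, which rate the 3-base periodicity of reads in a frame, ran from 0.848 to 0.951 for MYO1A, with 0.769 and 0.940 for DPP4 and 0.748 and 0.870 for ANPEP, where the median uORF stood at 0.870. Each score is the highest that the smORF reached. The paper called smORFs in several cell types, so a score need not come from these Caco-2 libraries. Mean PhyloCSF scores, which are positive where codon conservation is that of a protein, were below 0 for all 10, from -7.694 for IEC_14542 to -5.505 for IEC_16424, with a median of -6.592 over the 16911 uORFs. The 4 long MYO1A smORFs were longer than 88.1% to 91.2% of uORFs. Of the 10 members, 4 began with ATG, against 43.4% of all smORFs.

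Genes that work beside the members were taken as lists. Of 22 other brush border digestive enzymes, 7 had a smORF, and 10 smORFs of 5 genes were tested. In the differentiated control 9 of these 10 were higher and 0 lower, where 17.7% of all smORFs tested were called higher and 15.6% lower. Their median log2 fold change was 5.03, or 2.79 with the 5 smORFs that had no undifferentiated count set to their lower bound, beside a median of 0.01 over all smORFs tested. The calls included smORFs of DPEP1, ASAH2 and XPNPEP2, and those of 1 gene overlap and share reads. The first named for its counts was IEC_12892 in DPEP1, a dipeptidase, which had 4 and 7 counts in undifferentiated cells and 25 and 60 in the control, a log2 fold change of 2.79 ± 0.46 (SE; adjusted p = 0.000182 by edgeR).

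Other enzymes of the list are named after their values were seen. IEC_17771 in ASAH2, the neutral ceramidase, had 4 and 2 counts in undifferentiated cells and 19 and 27 in the control (log2 fold change 2.80 ± 0.50, SE; adjusted p = 0.00037 by edgeR). IEC_12345 in XPNPEP2, a membrane aminopeptidase, had 0 and 0 counts against 17 and 38, at least 8.23-fold higher by the limit of 3 counts per library. GGT1, a glutamyl transferase, had 1 smORF tested, IEC_05998, with 25 and 7 counts in undifferentiated cells and 21 and 41 in the control. Its means were 25.9 ± 19.0 and 47.2 ± 8.68 CPM (SD, n = 2), and it was not called (log2 fold change 0.85 ± 0.45, SE; adjusted p = 0.146 by edgeR). Another GGT1 smORF, IEC_04999, had 3 and 1 counts against 6 and 7 and did not pass the filter.

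Other genes of the microvillus core, its membrane linkers and its adhesion complex were mixed. Of 35 genes 17 had a smORF, and 50 smORFs were tested. Of these, 2 were higher (4.0%, beside 17.7% of all smORFs tested), 11 were lower (22.0%, beside 15.6%) and 37 were not called. Their median log2 fold change was 0.60. Several smORFs of 1 gene, as in MYO6 and EPS8, had equal or near-equal counts, so the 50 are not separate observations. By host gene, 15 were tested, 1 was called higher and 2 were called lower. SLC9A3R1, a scaffold that binds ezrin, rose in IEC_00859 (a dORF, in the 3′ untranslated region) from 6 and 2 counts to 23 and 49, a log2 fold change of 3.02 ± 0.48 (SE; adjusted p = 0.000139 by edgeR). PDZK1, an apical scaffold, fell in IEC_23923 from 75 and 63 counts to 19 and 38, a log2 fold change of -1.39 ± 0.30 (SE; adjusted p = 0.00179 by edgeR). The other called falls were in EPS8, EPS8L2 and RDX, but the smORFs of EPS8 and EPS8L2 differed in direction. In EPS8, which caps and bundles actin, 3 overlapping smORFs fell (log2 fold changes from -1.17 to -1.15), while the remaining smORFs tested had log2 fold changes from 0.79 to 1.39 and were not called (adjusted p from 0.0595 to 0.235). In EPS8L2, 4 smORFs fell. IEC_10929 and IEC_04855 were lower by just under the size asked for (log2 fold changes -1.0 and -0.99, adjusted p = 0.0257 and 0.0487 by edgeR). IEC_12809 stood at -2.11 (adjusted p = 0.0868 by edgeR) and was not called. Only IEC_08800 was higher, at 1.20 ± 0.48 (log2, SE, adjusted p = 0.0582 by edgeR), and it was not called. The count of rises depended on the fit, with 11 when only these 2 groups were fitted and 0 when 10 counts in every library were required.

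Apical trafficking and keratin smORFs were called higher at shares near that of all smORFs tested. Of 20 trafficking smORFs tested in 8 genes, 4 were higher (20.0%, beside 17.7% of all) and 0 lower, with a median log2 fold change of 0.50. IEC_00925 in VAMP8, a vesicle fusion protein, rose from 25 and 30 counts to 48 and 85 (log2 fold change 1.15 ± 0.30, SE; adjusted p = 0.00591 by edgeR), and 2 of the calls fell in PLD1, a phospholipase. Of 4 smORFs tested in keratins of simple epithelium, 1 was called (25.0%), IEC_21557 in KRT8, with 1 and 1 counts in undifferentiated cells and 20 and 29 in the control. The ratio of these summed counts was 22.9, with an exact counting interval from 6.02 to 195. The median of the 4 was -0.37. In the 3 micelle comparisons no smORF of any of these lists was called.

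**Figure D5:**
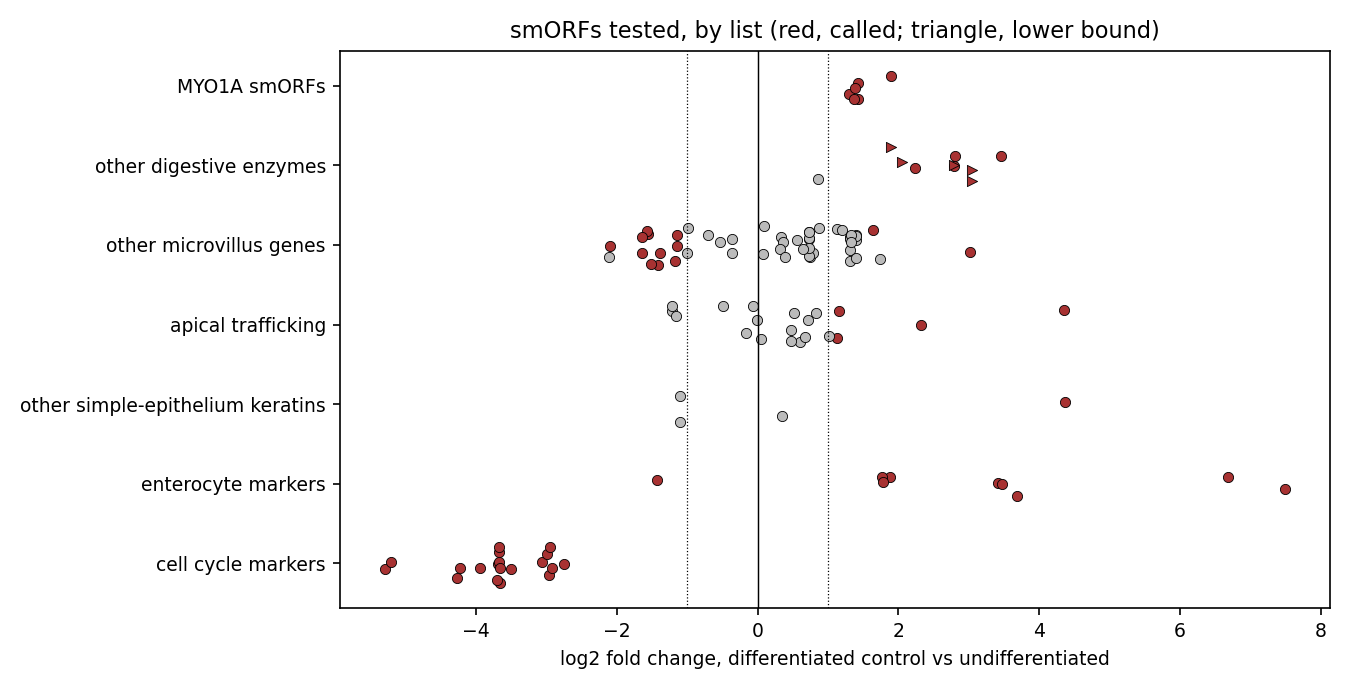
Log2 fold change in the differentiated control against undifferentiated cells for the MYO1A smORFs and for the smORFs tested of each list, red where called and with triangles at the lower bound for smORFs without an undifferentiated count. MYO1A lies between 1.30 and 1.90, the digestive enzymes between 0.85 and 3.46, and the cell cycle markers all lie below 0.

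Marker lists were read beside the rise of MYO1A. There were 9 enterocyte marker smORFs tested, in 6 genes. In the control 8 were higher (88.9%, beside 17.7% of all smORFs tested) and 1 was lower (11.1%, beside 15.6%). FABP1, a fatty acid carrier, rose in IEC_14386 from 275 and 219 counts to 974 and 868 (log2 fold change 1.88 ± 0.44, SE; adjusted p = 0.00336 by edgeR). APOA1, an apolipoprotein, fell in IEC_17174 from 624 and 807 counts to 155 and 453 (log2 fold change -1.43 ± 0.35, SE; adjusted p = 0.00425). All 19 cell cycle smORFs tested, in AURKA, CCNA2, CDK1, MKI67 and TOP2A, were lower, where 15.6% of all smORFs tested were called lower. They lay in 5 genes, and several of 1 gene had near-equal counts, so they are not 19 separate observations. Their summed level ran from 7735 to 8129 CPM in undifferentiated and from 659 to 674 CPM in control libraries. The part of this shift in the values of MYO1A was not tested, and in bulk libraries a change in the share of cells and a change per cell cannot be told apart. Fibroblast and immune marker smORFs, 8 and 7 in number, did not pass the filter, with summed levels of at most 33.0 and 11.7 CPM in any library, and no smORF of an enteroendocrine marker was in the table.

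The host genes whose levels followed MYO1A most closely over the 8 libraries were NR3C1, the glucocorticoid receptor (Pearson's r = 0.987), and GBP2, a guanylate binding protein (r = 0.986), on log2(CPM + 1) values. NR3C1 stood at 26.5 and 13.3 CPM in undifferentiated cells and from 92.8 to 142 CPM in the 6 other libraries. Such closeness was common, since 476 of 5089 host genes had an r over 0.9 with MYO1A, and all 8 points fall into 2 clusters. DPP4 was nearest to MSL1 (r = 0.976) and PPIP5K2 (r = 0.910), and ANPEP to LRRFIP2 (r = 0.970), in both cases from counts too low to rank patterns.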

How the data were processed

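Ribo-Seq libraries were made by the authors from cells held in cycloheximide and digested with RNase I. Per the labels, reads were aligned to hg38 with STAR 2.7.11a. The authors translated StringTie transcripts in 3 frames, kept smORFs of at most 150 amino acids with a RibORF score of at least 0.7 that did not overlap known coding sequence, and counted reads per smORF with HOMER. The deposited values are raw counts, and the RibORF and PhyloCSF score of each smORF was taken from the deposited annotation. Strand, exon and multi-mapping options of the counting are not given in the sources used here, so values of overlapping smORFs are uncertain.

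The test was that of edgeR 4.0.16 (R 4.3.3) after filterByExpr on the groups, with TMM scaling and a quasi-likelihood fit of group over all 8 libraries, two-sided, adjusted by Benjamini-Hochberg over all smORFs tested. CPM are counts per TMM-scaled total of the smORFs tested. DESeq2 1.42.0 and the other alternatives are given further on. Same-strand smORFs with exon overlap formed 11522 clusters. Sequence and annotation came from hg38 and GENCODE release 44, and all 10 member sequences equalled hg38. Differentiated libraries with the same number had correlated deviations from their group means, at 0.198, 0.119 and 0.109, while pairs with undifferentiated libraries lay at -0.065 to 0.021. The main fit left the replicate number out, so its micelle intervals and p-values use no pairing. A block on the number was an alternative fit. In simulated data for the control against undifferentiated cells, 6.45% of 93 changes of 2-fold and 72.6% of 95 changes of 4-fold were called among 13982 smORFs. A change of 2-fold equals the log2 fold change of 1 in the call rule, so the rule itself limits that share. The simulation also changed few smORFs, whereas 33.3% of the 15182 tested were called in the data. Adjustment for multiple testing is stricter where few smORFs change, so these shares do not give the sensitivity in the data. The micelle comparisons were not simulated.

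The members and lists were chosen with earlier results of these data known. Named were every member smORF that passed the filter, for other member genes the smORF with most counts, and of each list the called smORF with most counts in each direction, or the one with most counts where none was called. The remaining members and the genes so marked were named beside these. All per-library columns were used. Some results for single genes of the lists and of the nearest patterns are not reported here.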

Additional observations from a re-analysis of the deposited data

How the results depend on the processing

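The rise of the 6 MYO1A smORFs in differentiated control cells kept its direction in all 90 alternative values and its call in 87, the 3 losses being given above. The smORFs called in this comparison numbered 2309 with 1 smORF per overlapping cluster (1 member, since 1 was tested), 1562 with 10 counts in every library and 3301 by the DESeq2 Wald test. IEC_14543 could not be fitted with 10 counts in every library. The 90 values are refits, on the same libraries, of 6 smORFs that share reads, and are not separate observations. For micelles without lipid against the control, 2 smORFs were called by DESeq2, 36 with no low-count filter, 15 under either replicate block and 0 to 25 when 1 library was left out. For lipid micelles against the control, 4 were called with no filter and 1 under the replicate block in the 6 differentiated libraries. For lipid micelles against micelles without lipid, 23 were called with no filter, 14 under the block in 6 libraries, 3 under the block in all 8 and 0 to 1 with 1 library left out. Member calls stayed at 0 in all of these, and the block changed no member's call. Equal replicate numbers were not a stated day or batch.

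Log2 differences of MYO1A with micelles were near 0 and changed sign. With library totals alone, IEC_14541, IEC_19220 and IEC_20179 stood at -0.01 for lipid micelles against the control. With 1 library left out, micelles without lipid against the control gave -0.15 to 0.06 for the host gene, -0.25 to 0.40 for IEC_14543, -0.14 to 0.07 for IEC_18975 and -0.22 to 0.02 for IEC_19220 and IEC_20179. Lipid micelles against the control gave -0.21 to 0.27 for the host gene, -0.21 to 0.25 for IEC_14541, IEC_19220 and IEC_20179, -0.01 to 0.28 for IEC_14542, -0.13 to 0.56 for IEC_14543 and -0.19 to 0.28 for IEC_18975. Lipid micelles against micelles without lipid gave -0.17 to 0.31 for the host gene, -0.07 to 0.39 for IEC_14541, -0.12 to 0.17 for IEC_14542, -0.20 to 0.49 for IEC_14543, -0.15 to 0.32 for IEC_18975 and -0.11 to 0.36 for IEC_19220 and IEC_20179. The cause was not tested. Depth limits DPP4 and ANPEP, and 2 libraries per group limit every interval.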

Other observations

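Some smORFs of the other intestinal markers that the table held moved between undifferentiated and control cells, and others were not called. AGR2, a secretory cell chaperone taken as a goblet marker, fell in IEC_20061 from 2778 and 1675 counts to 473 and 806, a log2 fold change of -1.90 ± 0.26 (SE; adjusted p = 2.69e-05 by edgeR), while its dORF IEC_19432 had 13 and 11 counts against 6 and 22 and was not called. The other 5 goblet markers had no smORF. ASCL2, a transcription factor of crypt stem cells, rose in IEC_15428 from 7 and 10 counts to 17 and 36, a log2 fold change of 1.50 ± 0.42 (SE; adjusted p = 0.0104 by edgeR), and its dORF IEC_15430 was called too, while IEC_15429, with 2 and 4 counts against 7 and 8, was not (log2 fold change 1.20 ± 0.72, SE; adjusted p = 0.199). LGR5, a receptor of crypt stem cells, lay the other way in IEC_01095, with 4 and 6 counts in undifferentiated cells and 1 and 0 in the control, and did not pass the filter. CDX2, an intestinal transcription factor, rose in IEC_17436, a dORF, from 7 and 9 counts to 77 and 152, a log2 fold change of 3.69 ± 0.35 (SE; adjusted p = 7.09e-07 by edgeR). The CDX2 uORF IEC_17439, with 10 and 7 counts against 12 and 27, was not called (log2 fold change 1.07 ± 0.45, SE; adjusted p = 0.0708 by edgeR). CDX2 came from the epithelium markers, of which 12 smORFs in 4 genes were tested. In the control 7 were called higher (58.3%, beside 17.7% of all smORFs tested), all in CDX2 and KRT8, and 0 lower (beside 15.6%). IEC_16489 in KRT19, with most counts of the list, was not called (log2 fold change 0.35 ± 0.28 SE, adjusted p = 0.345 by edgeR). The other KRT19 smORFs, at -1.1 and -1.11, and IEC_00923 in EPCAM, at -0.33, were not called either. APOA4, an enterocyte apolipoprotein, had 4 and 3 counts in IEC_16317 in undifferentiated cells and 509 and 898 in the control, a log2 fold change of 7.49 ± 0.41 (SE; adjusted p = 3.61e-09 by edgeR). The smORFs with most counts among the fibroblast and immune markers, IEC_13934 in LUM and IEC_18020 in CD14, had 19 and 5 counts over the 8 libraries.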
